A study of Mus musculus with 2 samples.

Results

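Immediate early genes are switched on within minutes of a stimulus, before any new protein is made, and 10 of them are described here cell type by cell type: Fos, Fosb, Jun, Junb, Jund, Egr1, Atf3, Ier2, Nr4a1 and Zfp36. They were taken by symbol, 10 of the 32285 gene identifiers in the matrices, and each symbol matched 1 identifier. The cells were a non-parenchymal preparation of the liver (mainly endothelial, immune and stromal cells), sequenced by droplet single-cell RNA sequencing. 1 library came from Mfap2+/+ mice (labelled WT) and 1 from Mfap2-/- mice (labelled KO), and both groups had received carbon tetrachloride (CCl4), a liver toxin that causes fibrosis, by intraperitoneal injection for 8 weeks. The deleted gene, Mfap2, encodes a microfibril glycoprotein of the extracellular matrix. The labels name no uninjected group and state neither how the allele was made nor the age, the strain or the number of animals behind a library. With 1 library per genotype, an effect of the genotype cannot be told apart from a difference between animals or cell preparations, no test between genotypes is possible, and every interval given covers counting error only.

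Fos, Fosb, Jun, Junb and Jund are subunits of AP-1, a pair of leucine zipper proteins that binds DNA, and Atf3, of the related ATF/CREB family, can pair with Jun proteins. Egr1 is a zinc finger factor driven by MAP kinase signalling through serum response factor, and Nr4a1 is an orphan nuclear receptor. Ier2 encodes a small nuclear protein, and Zfp36 (tristetraprolin) an RNA-binding protein that speeds the decay of cytokine transcripts, and is thus not a transcription factor. In the liver these genes respond to injury, growth factors and bacterial products, and in many tissues they are also induced while cells are being dissociated. Of this group Jund is known for its steady expression in resting cells.

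The genes lie on 7 chromosomes, with Junb, Jund and Ier2 on chromosome 8, Fosb and Zfp36 on 7 and Egr1 on 18. Atf3 spans chr1:191170296-191218039, Ier2 chr8:84661331-84662852, Fos chr12:85473890-85477273, Jun chr4:95049034-95052222 and Nr4a1 chr15:101254269-101274795. Jun, Jund and Ier2 have a single exon in every annotated transcript, whereas the longest annotated Nr4a1 transcript has 8 exons (GENCODE M21, mouse build GRCm38). On the opposite strand Jun overlaps Junos, Junb overlaps Prdx2, Jund overlaps Gm11175, Atf3 overlaps Gm24748 and Zfp36 overlaps Gm44710. Whether strand was used in counting is not given in the sources used here, so reads of these 5 genes and of their partners may not have been told apart. RefSeq promoter windows (GRCm38.p6, 250 bases before to 50 after the annotated start) were at hand for 8 of the 10 genes, all but Egr1 and Ier2. The Jund window lies before the GENCODE gene. The 120 bases before its RefSeq start end at chr8:70697738, and the GENCODE gene begins at chr8:70698949. The CREB/ATF core TGACG, the site class that Atf3 and CREB proteins bind, was found on either strand in 5 of these 8 windows and in 20.8% of 32851 promoter windows. RefSeq's starts of Atf3 and Nr4a1 lie inside the GENCODE gene spans given above. Those 5 are shown for the 120 bases before the start, 5′ to 3′ on the gene's strand, because they hold a site of the family that Atf3 belongs to. Capitals mark TGACG, written as its reverse complement where it lies on the other strand, and in Fos the TATA box.
Fos, chr12:85473770-85473889, + strand: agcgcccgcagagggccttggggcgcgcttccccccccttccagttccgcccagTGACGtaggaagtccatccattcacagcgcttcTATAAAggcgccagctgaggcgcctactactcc
Fosb, chr7:19310046-19310165, - strand: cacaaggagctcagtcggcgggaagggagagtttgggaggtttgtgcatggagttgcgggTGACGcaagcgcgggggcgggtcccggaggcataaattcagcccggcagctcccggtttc
Junb, chr8:84978749-84978868, - strand: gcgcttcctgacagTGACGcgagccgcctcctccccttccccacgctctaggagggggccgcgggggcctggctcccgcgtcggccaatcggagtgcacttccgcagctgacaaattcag
Atf3, chr1:191183334-191183453, - strand: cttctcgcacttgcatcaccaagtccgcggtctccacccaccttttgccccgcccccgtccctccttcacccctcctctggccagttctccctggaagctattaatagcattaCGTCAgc
Nr4a1, chr15:101266726-101266845, + strand: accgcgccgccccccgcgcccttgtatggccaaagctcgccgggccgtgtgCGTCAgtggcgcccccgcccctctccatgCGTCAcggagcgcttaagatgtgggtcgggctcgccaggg
The element lay 66 bases before the start in Fos, 60 in Fosb, 106 in Junb, 7 in Atf3 and 40 and 69 in Nr4a1. Fos held a second copy 129 bases and Nr4a1 further copies 213 and 233 bases before the start, outside the bases shown. A TATA box (TATAAA) lay 33 bases before the start of Fos, and TATAAA was found in 2 of 8 windows against 13.6% of all. The other match, in Junb, lay at bases 1 to 6 counted from the start and not before it. The Sp1 site GGGCGG was found in 6 of 8 windows against 35.7% of all, and the CArG box, the core of the serum response element, in 1 of 8 (Zfp36) against 1.63%. The AP-1 site TGANTCA was not found in any of the 8 windows, against 7.81% of all. Both strands were searched in every case, and a match is a run of letters, not evidence of binding.

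Sequencing gave 82499307 UMIs (unique molecular identifiers, 1 per captured RNA molecule) over 11783 barcodes for the wild type and 118226367 over 12872 for the knockout. After filtering, 10336 and 11428 cells remained, with medians of 4694 and 6285 UMIs per cell. 40 barcodes occurred in both libraries, 31 of them among the cells kept. Mfap2 itself gave 211 UMIs in the kept wild-type cells and 2 in the kept knockout cells, which goes with the labels. Cells were grouped into 13 classes named from at least 3 raised marker genes each, and a class is called macrophage-like, T-like and so on because the names rest on those markers alone. The class called conventional dendritic-like had all markers of both type 1 and type 2 dendritic cells raised. The non-parenchymal label did not hold for all cells: 52 wild-type and 79 knockout cells were hepatocyte-like. The RNA of other cells found in each class also differed. The summed level of 6 erythroid markers was lower in the knockout library in 17 of 17 groups, these classes and 4 further clusters with raised cell cycle markers (log2 ratio -2.83 to -0.65) and that of 6 hepatocyte markers was higher in 15 of 16, the hepatocyte-like class left out.

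All 10 genes were read in every class, and their levels differed more between cell classes than between the libraries. A level is given in CPM (counts-per-million), the summed UMIs of a gene in 1 class and library scaled to the UMIs of all genes there. Fos was highest in classical monocyte-like cells, at 7498 CPM in the wild-type library and 9351 in the knockout, and lowest in hepatocyte-like cells, at 1250.3 and 1181. Patrolling monocyte-like, cholangiocyte-like, conventional dendritic-like, macrophage-like and mesenchymal-like cells followed in that order, between 5402 and 8099 in both libraries, and the ranges of neighbours overlapped. B-like cells had 1924 and 2678 of Fos, next to last in the order, and the same cells had the most Jund of any class, 4047 and 2815. Jund in the other 12 classes did not exceed the 3084 of wild-type cholangiocyte-like cells.

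Egr1 was highest in cholangiocyte-like and mesenchymal-like cells. Cholangiocyte-like cells, the bile duct cells, had 3899 CPM in the wild-type library and 3375 in the knockout. Mesenchymal-like cells, which include stellate cells and fibroblasts, had 2656 and 2673, and the ranges of the cholangiocyte-like and mesenchymal-like classes did not overlap. Hepatocyte-like cells, the other epithelial class, had 377 and 274. T-like cells had 289 and 291 and NK or innate lymphoid-like cells 278 and 242. Endothelial-like cells, at 1454 and 2432, ranked behind the mesenchymal-like cells, and their range overlapped that of the macrophage-like cells, 1456 and 1609.8.

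Nr4a1 followed another order. It was highest in patrolling monocyte-like cells, at 1395 CPM in the wild-type library and 1478 in the knockout. This is a cell type whose survival is known to need Nr4a1. Classical monocyte-like cells followed at 1241 and 1343, a range below that of the patrolling monocyte-like cells without overlap. Endothelial-like cells had the least Nr4a1, 96.9 and 104, although they ranked high for Egr1, and their range overlapped that of hepatocyte-like cells, 92 and 138.

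Junb and Zfp36 were highest in neutrophil-like cells. Junb stood there at 5306 CPM in the wild-type library and 4852 in the knockout, and in cholangiocyte-like cells, the next in order, at 5058 and 3308. Zfp36 stood at 2975 and 2901 in neutrophil-like cells and at 2726 and 2451 in patrolling monocyte-like cells. B-like, T-like and plasma-like cells had 453 to 584 CPM of Zfp36, below each of the myeloid classes. Atf3 was highest in cholangiocyte-like cells, 4929.6 and 4283, followed by conventional dendritic-like cells, 3117 and 4711, and macrophage-like cells, 2527 and 3986, whose ranges overlapped. Plasma-like cells had the least Atf3 of the named classes, 288 and 568.

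**Figure D1:**
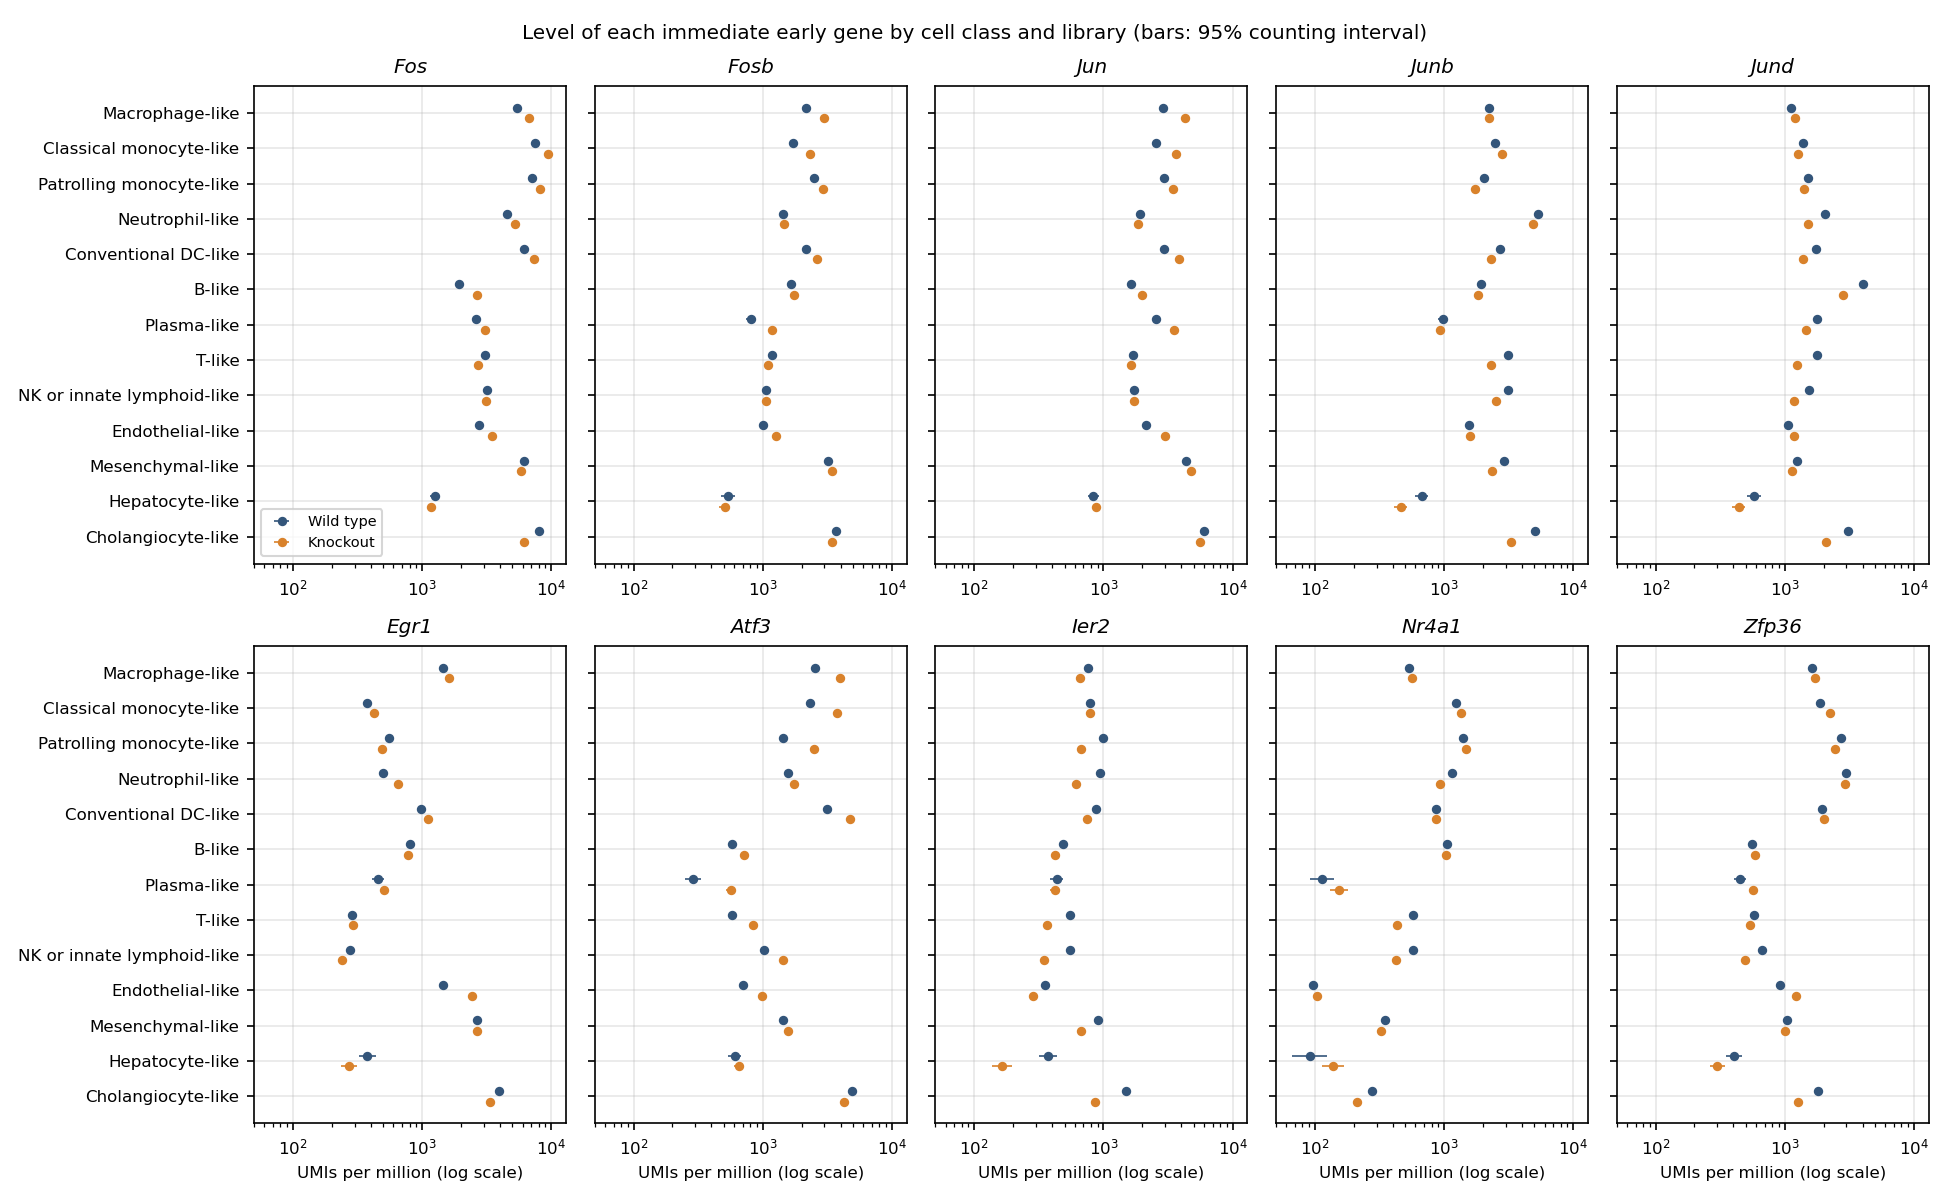
Level of each gene (CPM, log scale) in 13 cell classes, with 1 point per library and bars for the 95% Poisson interval of the count, which covers counting error only. Atf3 lies further right in the knockout library in 12 of 13 classes, Ier2 further left in 13 of 13, and hepatocyte-like cells are the lowest named class for 7 of the 10 genes.

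The differences between the libraries were mostly under 1.5-fold. Of 130 values (10 genes in 13 classes), 6 were at least 1.5-fold higher and 6 at least 1.5-fold lower in the knockout library, and 1 passed 2-fold. Atf3 accounted for 5 of the 6 higher values and Ier2 for 5 of the 6 lower values. The counting interval lay above 0 for 53 values and below 0 for 51. All 10 genes had at least 20 UMIs in every class, the minimum set for all genes, so no member dropped out.

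In macrophage-like cells 1 of 10 genes was at least 1.5-fold higher, against 18.5% of all genes tested, and none was that much lower, against 5.29%. Classical monocyte-like cells had 1 higher (14.7% of all genes) and none lower (6.06%), and patrolling monocyte-like cells 1 higher (13.5%) and none lower (7.67%). Conventional dendritic-like cells had 1 higher (14.5%) and none lower (5.95%). In each of these 4 myeloid classes the higher gene was Atf3. Neutrophil-like cells had none higher (15.1%) and 1 lower (8.24%).

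The lymphoid classes gave few such values as well. B-like cells had none higher (11.0%) and none lower (6.24%), and T-like cells none higher (13.6%) and 1 lower (6.58%). NK or innate lymphoid-like cells had none higher (14.8%) and 1 lower (5.69%). Plasma-like cells had 1 higher (22.3%), which was Atf3, and none lower (7.46%). Endothelial-like cells had 1 higher (11.0%), which was Egr1, and none lower (12.8%), and mesenchymal-like cells none higher (19.1%) and none lower (9.35%). Hepatocyte-like cells had none higher (17.4%) and 1 lower (20.5%), and cholangiocyte-like cells none higher (19.6%) and 2 lower (7.17%), Ier2 and Junb. A single gene of 10 is at or near these background shares in most classes, so the counts do not set the members apart from other genes. Among genes with at least 200 UMIs, which nearly all members had, the shares were smaller. They were 11.5% higher in macrophage-like and 6.76% higher in endothelial-like cells. The shares lower were 2.91% in T-like, 2.27% in NK or innate lymphoid-like and 5.75% in cholangiocyte-like cells. The counts of members were not tested against either set of shares.

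**Figure D2:**
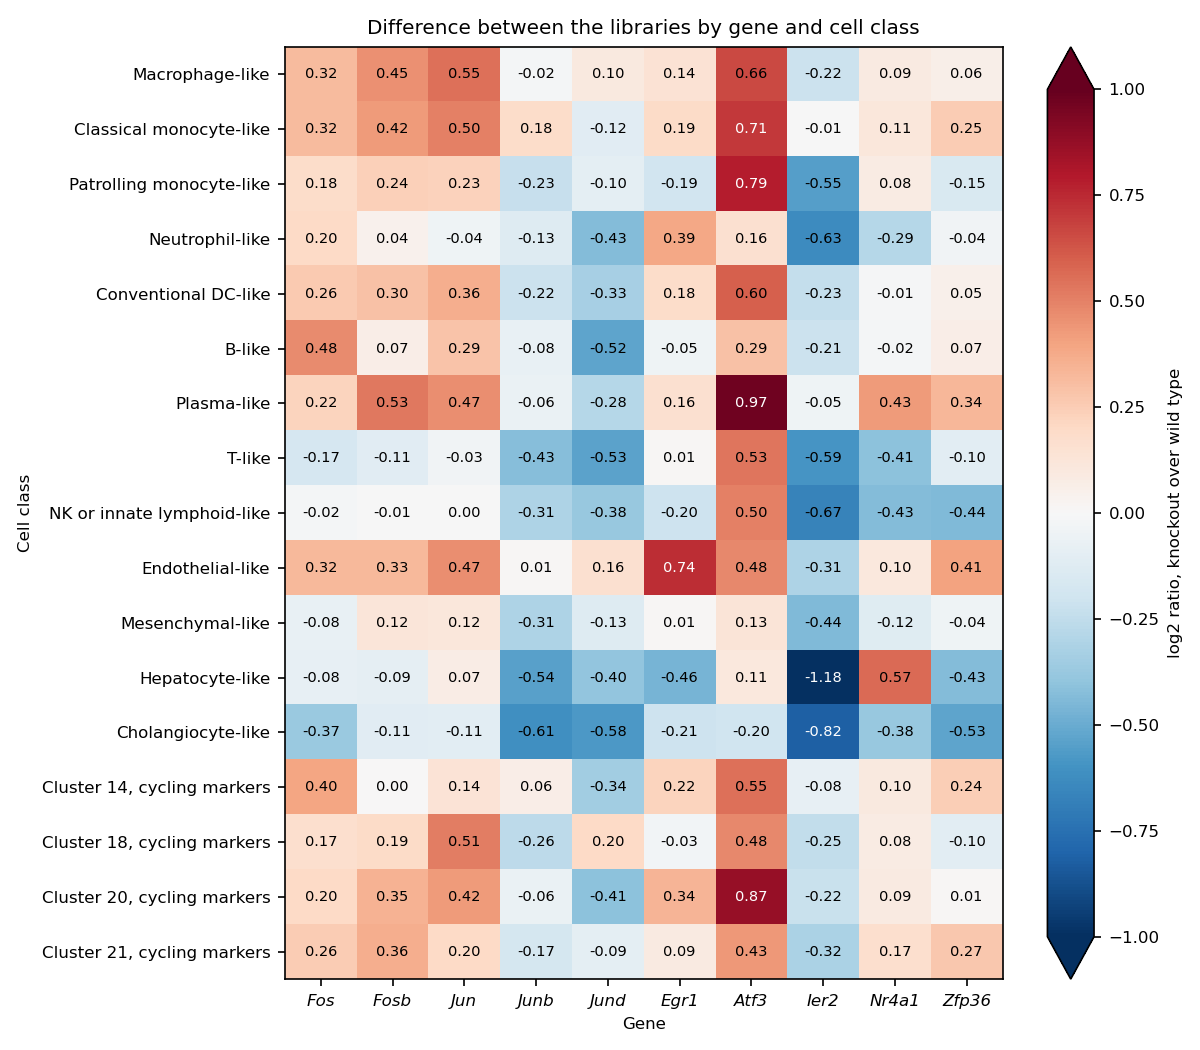
Log2 ratio of the knockout over the wild-type library for each gene (columns) in 13 cell classes and 4 clusters with raised cycling markers (rows), with red for higher and blue for lower in the knockout library. The Atf3 column is red in every row but cholangiocyte-like cells, the Ier2 column is at or below 0 in every row, and the cholangiocyte-like row is blue throughout.

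Atf3, which is induced by stress and limits inflammatory transcription in macrophages, was higher in the knockout library in 12 of 13 classes and in 4 of 4 clusters with raised cycling markers. Macrophage-like cells had 2527 CPM in the wild-type library and 3986 in the knockout, 1.58-fold higher (log2 ratio 0.66, interval 0.64 to 0.67). Patrolling monocyte-like cells had 1437 and 2479, 1.73-fold higher (log2 ratio 0.79, interval 0.74 to 0.83). The other classes past 1.5-fold were classical monocyte-like cells, with 2306 and 3775, and conventional dendritic-like cells, with 3117 and 4711. Plasma-like cells had 288 and 568, 1.96-fold higher, but from 53 and 55 cells, of which 5 cells held 53.8% and 41.6% of the Atf3 UMIs.

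Lymphoid cells showed the same direction for Atf3 at a lower level. T-like cells had 576 and 834 (log2 ratio 0.53, interval 0.46 to 0.61) and NK or innate lymphoid-like cells 1016 and 1439 (log2 ratio 0.50, interval 0.45 to 0.56). Cholangiocyte-like cells were the exception, with 4929.6 and 4283 (log2 ratio -0.20, interval -0.23 to -0.18). Neutrophil-like and mesenchymal-like cells were close to parity, at log2 ratios of 0.16 and 0.13, and each turned below 0 under 1 alternative, -0.32 where the libraries were clustered separately and -0.022 with scaling by the median of ratios over genes. With separate clustering the neutrophil-like class held 920 wild-type and 980 knockout cells, against 913 and 798 here, so the cell sets differ.

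The higher Atf3 level was not held by a few cells in macrophage-like cells, where 5 cells held 1.01% and 0.944% of its UMIs in the wild-type and knockout libraries. Each cell was then reduced at random to 1000 UMIs (917 shallower cells of the wild type and 598 of the knockout had fewer), and at least 1 Atf3 UMI was found in 82.8% (81.1 to 84.4) of wild-type and 90.7% (89.4 to 91.9) of knockout macrophage-like cells (exact 95% interval). Before thinning the shares were 97.2% and 98.3%, at median depths of 10224 and 12538 UMIs. No class here is known to lack Atf3. Its lowest thinned share was in plasma-like cells, 28.6% (15.7 to 44.6) and 41.5% (28.1 to 55.9), at median depths of 14815 and 19170.0.

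Ier2 had the opposite direction. It was lower in the knockout library in 13 of 13 classes and 4 of 4 clusters with raised cycling markers, and the interval excluded 0 in 11 of the 13. Cholangiocyte-like cells had 1506 CPM in the wild-type library and 853 in the knockout, 1.77-fold lower (log2 ratio -0.82, interval -0.87 to -0.77). NK or innate lymphoid-like cells had 554 and 348, 1.59-fold lower, and T-like cells 554 and 369, 1.5-fold lower. Neutrophil-like cells had 944 and 610.2, 1.55-fold lower, a log2 ratio of -0.63 that was -0.077 where the libraries were clustered separately. The latter value rests on the differing cell sets given above. Classical monocyte-like and plasma-like cells were the 2 classes at parity, with 785 and 781 in the former and 434 and 421 in the latter.

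The lower Ier2 level in hepatocyte-like cells, 373 and 164 (2.27-fold lower, log2 ratio -1.18, interval -1.53 to -0.84), rested on 166 and 121 UMIs. In the wild-type library 5 of the 52 hepatocyte-like cells held 82.5% of the Ier2 UMIs, against 43.8% in 5 of 79 in the knockout library. The same number of wild-type cells held 79.7% of the Fos UMIs and 70.7% of the Nr4a1 UMIs there, so these wild-type levels are largely those of a few cells. In 6 classes (macrophage-like, endothelial-like, mesenchymal-like, B-like, T-like and neutrophil-like) and 11 alternatives each, Ier2 was below 0 in 66 of 66 values and Atf3 above 0 in 64 of 66. Not all of these values could change. Giving the knockout clusters the wild-type shares of cells, 1 of the alternatives, leaves a class of 1 cluster as it was. This holds for B-like, mesenchymal-like and neutrophil-like cells. The B-like class also kept 1234 and 1801 cells with list genes kept in clustering and with finer clustering.

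Fos, Fosb and Jun were higher in the knockout library in macrophage-like, monocyte-like, conventional dendritic-like, B-like and endothelial-like cells and not in T-like, NK or innate lymphoid-like or cholangiocyte-like cells. None of the 3 passed 1.5-fold in any class. Jun in macrophage-like cells had 2896 CPM in the wild-type library and 4250.1 in the knockout (log2 ratio 0.55, interval 0.54 to 0.57). Fosb in the same cells had 2165 and 2968 (log2 ratio 0.45, interval 0.44 to 0.47) and Fos 5402 and 6743 (log2 ratio 0.32, interval 0.31 to 0.33). Fos differed most in B-like cells, with 1924 and 2678, 1.39-fold higher (log2 ratio 0.48, interval 0.44 to 0.51), although the summed level of the 10 genes there was 14652 and 14568. The make-up of the B-like class differed between the libraries. At the finer Leiden resolution 2, 1 B-like cluster held 943 wild-type and 575 knockout cells and another 273 and 1189. The part of this make-up in the Fos difference was not tested. In T-like cells Fos stood at 3057 and 2719 (log2 ratio -0.17, interval -0.20 to -0.13), and in NK or innate lymphoid-like cells the intervals of all 3 genes included 0.

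The remaining Jun proteins, Junb and Jund, which are weaker activators than Jun and can restrain growth, were each lower in 11 of 13 classes. Junb in T-like cells had 3109 CPM in the wild-type library and 2309 in the knockout (log2 ratio -0.43, interval -0.46 to -0.39), and in cholangiocyte-like cells 5058 and 3308 (log2 ratio -0.61, interval -0.64 to -0.59). Classical monocyte-like cells, with 2465 and 2798, were the only class in which the Junb interval lay above 0. Jund was lower in B-like cells, 4047 and 2815 (log2 ratio -0.52, interval -0.55 to -0.50), and in T-like cells, 1786 and 1236 (log2 ratio -0.53, interval -0.58 to -0.48). Macrophage-like and endothelial-like cells were the 2 classes with more Jund in the knockout library, 1115 and 1194 in the former and 1056 and 1177 in the latter, and scaling by the median of ratios turned the macrophage-like value from 0.10 to -0.044. In conventional dendritic-like cells Jun stood at a log2 ratio of 0.36, Junb at -0.22 and Jund at -0.33, so the 3 Jun genes differed in direction within 1 class.

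Endothelial-like cells had the most members higher of any class by direction alone: 9 of 10 genes were higher in the knockout library. The interval lay above 0 for 7 genes there, against 8 in macrophage-like and 8 in classical monocyte-like cells. The summed level of the 10 in endothelial-like cells was 12066 and 15457. Egr1 had 1454 CPM in the wild-type library and 2432 in the knockout, 1.67-fold higher (log2 ratio 0.74, interval 0.71 to 0.78). Across the 11 alternatives its log2 ratio was 0.63 to 0.92, all past 1.5-fold. Zfp36 had 918 and 1217 (log2 ratio 0.41, interval 0.36 to 0.45) and Jun 2150.0 and 2970.1 (log2 ratio 0.47, interval 0.44 to 0.50). The median log2 ratio of the 10 genes was 0.32, beside -0.03 for all genes tested in that class, and the one gene lower was Ier2, 351 and 283. The number of genes at least 1.5-fold higher was 4 rather than 1 under 3 alternatives. These were cells thinned to 1000 UMIs (11.3% of all genes higher), cells averaged with equal weight (14.7%) and cells gated 1 by 1 (10.6%).

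The clusters of the endothelial-like class differed from each other. Cluster 4 (618 and 998 cells) was led by genes such as Esm1 and Pdk4, and 4 of 10 genes were at least 1.5-fold higher there, against 11.4% of all genes tested in that cluster. Egr1 stood in it at 1281 and 2452 (log2 ratio 0.94), Atf3 at 515 and 886 (0.78), Zfp36 at 689 and 1166 (0.76) and Jun at 1642 and 2759 (0.75). At the finer Leiden resolution 2, an endothelial-like cluster with Esm1 and Pdk4 among its leading genes held 212 wild-type and 713 knockout cells. The part of such make-up in the cluster 4 values was not tested. Cluster 10 (368 and 384 cells, of low depth) had Jun at 0.64 and Atf3 at 0.69. Cluster 15, led by Selp and Rspo3, had Egr1 at 0.41. In cluster 27, led by Gja5 and Sema3g and with 33 and 44 cells, Fos was -0.43 and Nr4a1 -0.74, so not all endothelial-like cells had more of these transcripts. Egr1 was higher in the knockout library in 4 of 4 endothelial-like clusters.

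**Figure D3:**
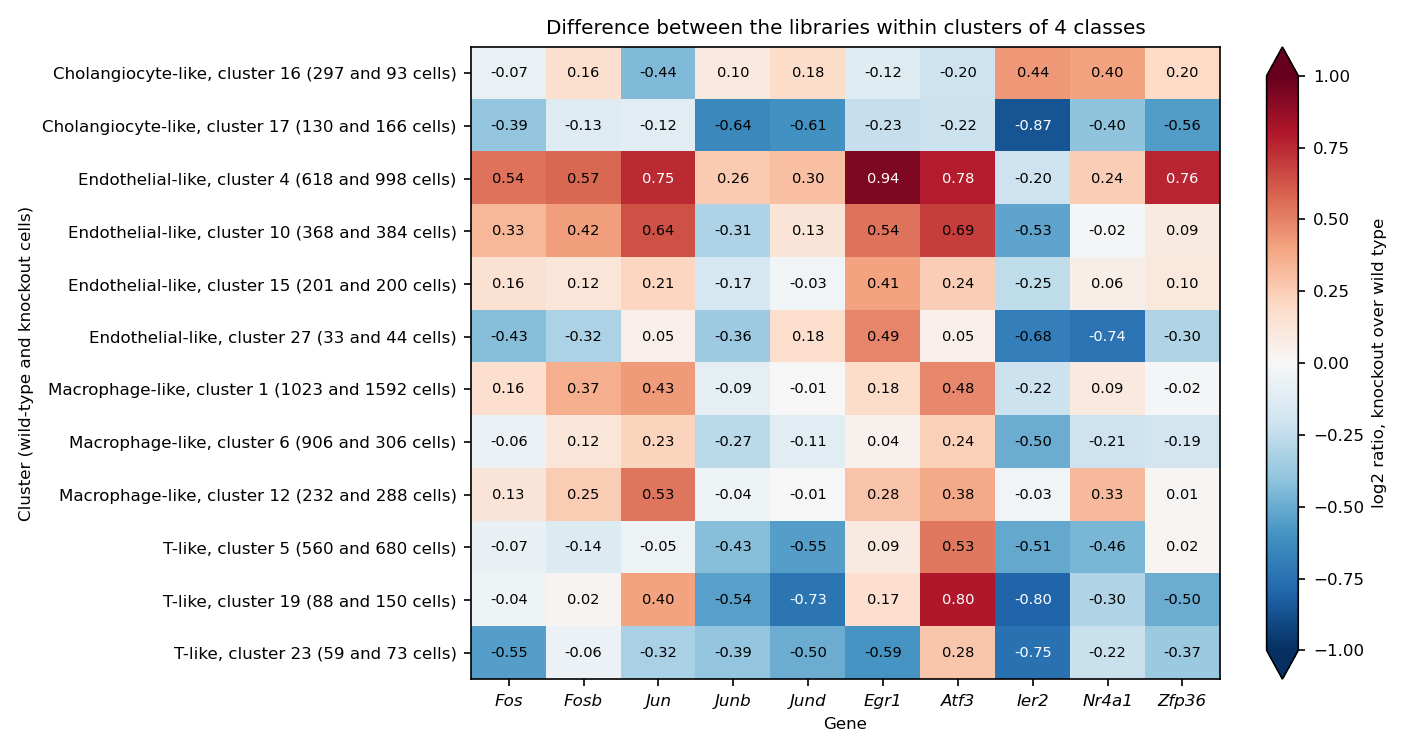
Log2 ratio of the knockout over the wild-type library for each gene (columns) in the clusters of the cholangiocyte-like, endothelial-like, macrophage-like and T-like classes (rows, with wild-type and knockout cell numbers). Endothelial-like cluster 4 is red for 9 of 10 genes, whereas cholangiocyte-like cluster 17 is blue for 10 of 10.

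In macrophage-like cells the make-up of the class moved with the result. Cluster 6, led by the resident Kupffer cell genes Marco and Clec4f, held 906 wild-type and 306 knockout cells, and cluster 1 held 1023 and 1592. Fos stood at 4205 and 4028 in cluster 6 and at 6742 and 7559 in cluster 1. Its log2 ratio within clusters 1, 6 and 12 was 0.16, -0.062 and 0.13, below the 0.32 of the whole class in all 3. With the knockout clusters given the wild-type shares of cells, Fos in the class was 0.11 and Atf3, 0.66 in the class as it stood, was 0.42, under 1.5-fold. Within the clusters Atf3 was 0.48, 0.24 and 0.38, and Jun 0.43, 0.23 and 0.53, higher in all 3. The summed level of the 10 macrophage markers in the class was 14622 and 12011, with 8 of the 10 lower in the knockout library. Jund, Nr4a1 and Zfp36 were above 0 in the class and below 0 with that weighting. The part of the cluster mix in the class values was otherwise not tested.

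Cholangiocyte-like cells were the one class in which all 10 genes were lower, with a summed level of 38230.0 and 30494 and a median log2 ratio of -0.38 beside 0.13 for all genes. Depth and make-up differed strongly there between the libraries: the median depth was 805 UMIs per cell for the wild type and 9148 for the knockout. The shallow cluster 16 held 297 of the wild-type and 93 of the knockout cells, and cluster 17 held 130 and 166. Cluster 17 held 41716 wild-type and 38846 knockout Fos UMIs and cluster 16 held 1393 and 731, so cluster 17 largely sets the class values. Within cluster 17 all 10 genes were lower, with a median of -0.40, which is therefore no separate support. There 3 genes were past 1.5-fold lower (7.74% of all genes tested in that cluster), Jund at -0.61, Ier2 at 1534 and 842 (-0.87) and Junb at 5183 and 3318 (-0.64). Within cluster 16 the median was 0.13 and Ier2 was 0.44. In the class, 5 cells held 17.5% and 17.7% of the Fos UMIs in the wild-type and knockout libraries. The part of the depth difference in the class values was not tested.

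Nr4a1 and Zfp36 were higher in 6 classes and lower in 7. Nr4a1 in T-like cells had 576 CPM in the wild-type library and 434 in the knockout (log2 ratio -0.41, interval -0.49 to -0.33), and in NK or innate lymphoid-like cells 571 and 423 (log2 ratio -0.43, interval -0.52 to -0.34). In B-like cells, another lymphoid class, it was 1047 and 1033, a difference within counting error. Zfp36 was lower in NK or innate lymphoid-like cells, 668 and 493 (log2 ratio -0.44, interval -0.52 to -0.35), and higher in classical monocyte-like cells, 1879.9 and 2243 (log2 ratio 0.25, interval 0.21 to 0.30). In mesenchymal-like cells, the matrix-producing class of the fibrotic liver, both genes were near parity, Nr4a1 at 351 and 323 and Zfp36 at 1038 and 1009. Egr1 in those cells was 2656 and 2673 (interval -0.035 to 0.053), and Ier2, at 906 and 667, was the gene that differed most.

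The 4 clusters with all 6 cycling markers raised were given no cell class, and they were not alike. Cluster 14 (325 and 185 cells) was led by Ltf, Ngp and Camp, granule genes of developing neutrophils. Its 7 neutrophil markers summed to 214650.0 and 185570.0 CPM, against 78978 and 62998 in the neutrophil-like class, and its cycling markers to 741 and 705. Cluster 21 (97 and 83 cells) was led by Ctsg, Mpo and Elane, granule genes of myeloid precursors. The neutrophil-like class therefore leaves out cells that carry its markers, and with list genes kept in clustering the cluster led by Ltf and Ngp was named neutrophil-like. In these 4 clusters Fos, Fosb, Jun, Atf3 and Nr4a1 were above 0 in 4 of 4 and Ier2 below 0 in 4 of 4. The interval included 0 for Nr4a1 in clusters 14, 18 and 20 and for Fosb and Ier2 in cluster 14. Atf3 ranged from 0.43 to 0.87 and Ier2 from -0.32 to -0.082 on the log2 scale. Over all kept cells together Atf3 stood at 1922 CPM in the wild-type library and 2619 in the knockout, and Ier2 at 773 and 583. These pooled values also carry the different cell numbers of the classes.

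Other genes of the same response were read from lists, and their members did not move together. Of the other AP-1 genes the list median was above 0 in 11 of 13 classes. The median of all genes tested was itself above 0 in every class but endothelial-like (-0.03) and hepatocyte-like cells (-0.083). For macrophage-like cells the list median was 0.088, beside 0.14 for all genes. In macrophage-like cells none of 15 tested genes were at least 1.5-fold higher (18.5% of all genes) and none that much lower (5.29%). Jdp2, a repressor that pairs with Jun, was higher in 13 of 13 classes and past 1.5-fold in 5, with 312 and 456 CPM in macrophage-like cells (log2 ratio 0.55). Of the other immediate early regulators the median was below 0 in 10 of 13 classes. In macrophage-like cells 5 of 33 tested genes were at least 1.5-fold higher (18.5% of all genes) and none that much lower (5.29%). In cholangiocyte-like cells 1 of 33 tested genes was at least 1.5-fold higher (19.6% of all genes) and 8 that much lower (7.17%). Crem, a cAMP-responsive factor, was higher in 13 of 13, with 46.4 and 102 in macrophage-like cells (1.13), and Nr4a2, the paralog of Nr4a1, was higher in 13 of 13, with 51.6 and 126 (1.29), where Nr4a1 itself was 532 and 567. Cebpd, an acute-phase factor, was lower in 12 of 13, with 1147 and 732 in mesenchymal-like cells (-0.65).

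The feedback inhibitors, which shut down the kinases and NF-kB upstream, had medians above 0 in 5 classes and below 0 in 8. In T-like cells 1 of 14 tested genes was at least 1.5-fold higher (13.6% of all genes) and 5 that much lower (6.58%). Dusp2, a MAP kinase phosphatase, was lower in 12 of 13 classes and past 1.5-fold in 7, with 459.8 and 208 in T-like cells (-1.15). Dusp1, another such phosphatase, was lower in 12 of 13, with 2276 and 1328 in T-like cells (-0.78) and 3688 and 2976 in macrophage-like cells (-0.31). Tnfaip3, an NF-kB inhibitor, was 875 and 1105 in macrophage-like cells (0.34). The list of upstream kinases and factors had a median above 0 in 12 of 13 classes, and the all-gene median was likewise above 0 in most classes. In endothelial-like cells the list median was 0.11, beside -0.03 for all genes. There Rps6ka3, a kinase downstream of ERK, stood at 292 and 567 (0.96). The MAP kinase pathway kinases Map2k2, at 72.8 and 48.3 (-0.59), and Mapk3, at 70.4 and 50.7 (-0.47), were lower in the same cells. Cytokine transcripts that Zfp36 is known to bind had medians above 0 in 5 classes and below 0 in 8: Tnf in macrophage-like cells was 197 and 109 (-0.86) and Cxcl2 3936 and 2900.4 (-0.44), whereas Il1b was 1708 and 1890.4 (0.15) and Cxcl1 78.5 and 76.0 (-0.046). Zfp36 in these cells was 1636 and 1700.4. In mesenchymal-like cells Ccl2 was 455 and 101 (-2.17) and Il1b 214 and 265 (0.31).

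Heat shock genes, which also respond to cell stress, differed between the libraries beside the immediate early genes. The median log2 ratio of the 13 heat shock genes was above 0 in 13 of 13 classes, from 0.39 in hepatocyte-like to 1.44 in plasma-like cells. It was 1.20 in macrophage-like, 0.88 in endothelial-like, 0.59 in T-like and 0.68 in cholangiocyte-like cells. In the last, where all 10 immediate early genes were lower, 9 of 13 tested genes were at least 1.5-fold higher (19.6% of all genes). None was that much lower (7.17%). Hsph1 was past 1.5-fold higher in 13 of 13 classes, with 333 and 1268 in endothelial-like cells (1.93). Bag3 was too, with 81.4 and 556 in macrophage-like cells (2.77). The part that heat shock, dissociation or free RNA had in the immediate early differences was not tested.

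**Figure D4:**
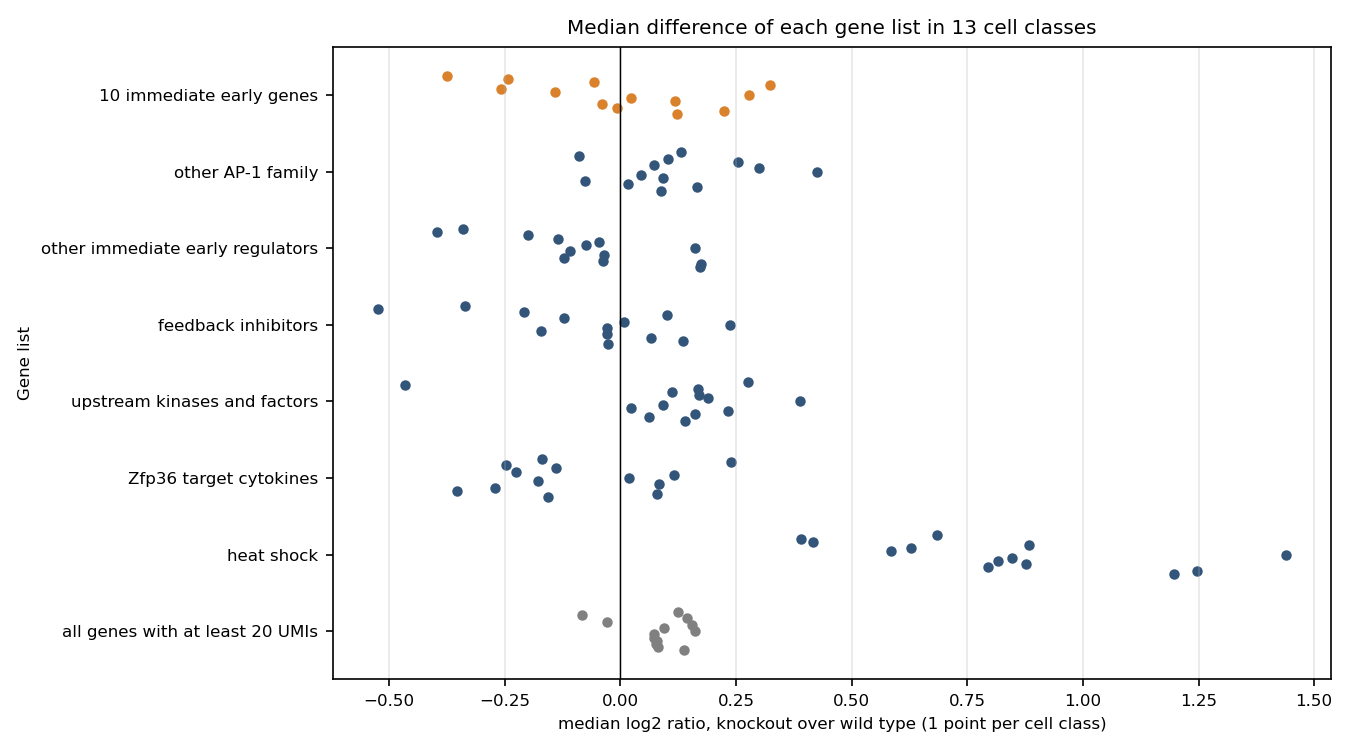
Median log2 ratio of the knockout over the wild-type library (horizontal axis) of each gene list (rows), with 1 point per cell class, 13 in all. The heat shock points all lie above 0, from 0.39 to 1.44, the 10 immediate early genes lie on both sides of 0, from -0.38 to 0.32, and the grey points of all genes with at least 20 UMIs lie between -0.083 and 0.16.

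The members' log2 ratios over 13 classes and 4 clusters with raised cycling markers varied together to different degrees. Against the median of the other 9, Zfp36 had a Pearson r of 0.83 and Nr4a1 one of 0.32, and Egr1 with Nr4a1 had one of 0.0048 and Fos with Junb one of 0.88. Among 4579 genes outside the lists, those whose ratio by class was most like the members' median included Tmem128 (0.70), Sqstm1 (0.69), Mrps6 (0.69) and Sntb1 (0.69). Sqstm1 encodes the autophagy receptor p62 and is known to respond to stress. By level over the same 17 groups, the most alike included Samd4b (0.86), Ccnl1 (0.83), Mbnl2 (0.81) and Etf1 (0.80). The 17 points share the same pair of libraries and so are not independent, and these values describe likeness only.

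Egr1 in endothelial-like and Ier2 in neutrophil-like cells had the same direction by thinned share of cells as by level. Egr1 was found in 47.3% (44.3 to 50.3) of wild-type and 62.7% (60.2 to 65.1) of knockout endothelial-like cells at 1000 UMIs per cell, and in 70.5% and 81.2% before thinning, at median depths of 4303 and 6196 UMIs. Its lowest thinned shares were in NK or innate lymphoid-like cells, 19.3% (16.4 to 22.4) and 22.6% (18.7 to 26.9), at median depths of 6682 and 7895. That share goes against the Egr1 level there, 278 and 242 CPM, so no direction is read from it. Ier2 was found in 55.5% (52.1 to 58.8) of wild-type and 41.3% (37.8 to 44.8) of knockout neutrophil-like cells after thinning, and in 76.2% and 73.4% before it, at median depths of 2082 and 2638.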

How the data were processed

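The authors deposited raw UMI counts per gene and barcode, 1 matrix per genotype, from Chromium 3′ v3 libraries per the labels' protocols. The deposited matrix headers name Cell Ranger 7.0.1, whereas the submitters' processing notes name Cell Ranger 3.1.0, Seurat and mm10, and the setting for introns and strand is not given in the sources used here. Barcodes under 200 genes or over 20% mitochondrial UMIs were dropped (413 wild-type, 149 knockout). The highest Scrublet scores were removed at 0.8% per 1000 cells (1034 and 1295 cells), since Scrublet's own cut-off failed for the wild type, marking 1 cell (0.0088%) there and 727 (5.71%) in the knockout.

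Both libraries were clustered together in scanpy 1.11.5 (2000 variable genes, 30 components, 15 neighbours, Leiden resolution 1, leidenalg 0.10.2), leaving out the 10 members, all list genes, haemoglobin, ribosomal protein and mitochondrial genes and Mfap2. This gave 30 clusters. Naming a cluster took 3 or more markers, each raised 2-fold and present in 10% of the cells or more. There were 2 clusters (3.37% and 3.06% of cells) without a name, and migratory dendritic, plasmacytoid dendritic and erythroid cells had under 50 cells in 1 or both libraries. The cell gate was thus applied to clusters, and a gate on single cells was an alternative.

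UMIs were summed per class and library and given as CPM. Log2 ratios carry 1 added count. Intervals at 95% are Poisson for levels, exact conditional for ratios and Clopper-Pearson for shares, and UMIs of 1 library do not measure variation between animals. The ratio, its interval and the 1.5-fold rule were run on simulated Poisson counts, which does not test cell filtering, clustering or naming. Names were set by a fixed rule: all 10 members in classes of at least 50 cells in both libraries; from each other list, the 2 highest and 2 lowest log2 ratios in 6 classes among genes at 50 CPM or more; and the 5 genes most alike by ratio and by level. Some genes that this rule names are not reported here. Genes named from a list in other respects (its counts over 13 classes) come from those. The members and lists were chosen with earlier results of these data known.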

Additional observations from a re-analysis of the deposited data

Results flagged for a closer look

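For 9 of the 10 genes, all but Ier2, the library difference lay above 0 in some cell classes and below 0 in others, with counting intervals clear of 0 on both sides. The gaps between the highest and the lowest log2 ratio are given here, and none of these differences was tested, since each class has 1 library per genotype. Egr1 had the widest gap, 1.21, between endothelial-like (0.74) and hepatocyte-like cells (-0.46). Atf3 had a gap of 1.18 between plasma-like (0.97) and cholangiocyte-like cells (-0.20). For Nr4a1 the gap was 0.999 between hepatocyte-like (0.57) and NK or innate lymphoid-like cells (-0.43). The hepatocyte-like ends rest on few UMIs, 168 and 202 for Egr1 and 41 and 102 for Nr4a1. Zfp36 gave 0.94 between endothelial-like (0.41) and cholangiocyte-like cells (-0.53). In the AP-1 genes the gap was 0.85 for Fos, between B-like (0.48) and cholangiocyte-like cells (-0.37), and 0.64 for Fosb, between plasma-like (0.53) and T-like cells (-0.11). Jun gave 0.66 between macrophage-like (0.55) and cholangiocyte-like cells (-0.11). Junb gave 0.80 between classical monocyte-like (0.18) and cholangiocyte-like cells (-0.61), and Jund 0.73 between endothelial-like (0.16) and cholangiocyte-like cells (-0.58). Cholangiocyte-like cells were the low end for 6 of these 9 genes. Depth and make-up differed strongly between the libraries in that class, as given above. In its shallow cluster 16 Junb, Jund and Zfp36 were above 0 with intervals that included 0, and Fos, Jun and Atf3 were below 0.

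Cluster 11, which had no class name (338 and 344 cells, under 3 raised markers, low depth), had intervals above 0 for 4 of the 10 genes and below 0 for none. The median of the 10 was 0.049, beside 0.13 for all genes there, and none passed 1.5-fold. Fos stood there at 4289 CPM in the wild-type library and 5152 in the knockout, a log2 ratio of 0.26. Fosb stood there at 1596 CPM in the wild-type library and 1954 in the knockout, a log2 ratio of 0.29. Jun stood there at 6656 CPM in the wild-type library and 7559.5 in the knockout, a log2 ratio of 0.18. Atf3 stood there at 2435 CPM in the wild-type library and 3652 in the knockout, a log2 ratio of 0.58. Junb, at 2342 and 2158 CPM (-0.12), and Ier2, at 814 and 733 (-0.15), were on the other side of 0 with intervals that included it. Egr1, at 1307 and 1306, and Nr4a1, at 792 and 781, were close to 0.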

How the results depend on the processing

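The 10 genes were recomputed in 6 classes (macrophage-like, endothelial-like, mesenchymal-like, B-like, T-like, neutrophil-like) under 11 alternatives to the processing, and the counts past the fold also at 2-fold and with no minimum of UMIs. Of 46 values whose interval excluded 0, the sign changed in 7 with scaling by the median of ratios, 3 with a gate on single cells, 3 with the knockout weighted to the wild-type cluster mix, 2 with the mean of per-cell values, 1 each without doublet removal, with list genes kept in clustering and with separate clustering, and 0 under the other 4. The cluster-mix weighting could change values only in macrophage-like, endothelial-like and T-like cells, the classes of more than 1 cluster. Median-of-ratios scaling moved all genes by -0.15 in mesenchymal-like, -0.14 in macrophage-like and -0.11 in T-like cells on the log2 scale.

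The number of genes at least 1.5-fold higher was 1 in macrophage-like cells. It was 2 with a stricter cell filter (1220 wild-type and 2119 knockout cells, against 2161 and 2186 before) or a gate on single cells. The stricter filter left unlike cell sets. A cluster of 925 wild-type and 147 knockout cells with 7 of 10 macrophage markers raised got no name there, since haemoglobin genes led it. The macrophage-like cluster led by Negr1 held 183 and 1530 cells. The number of genes was 0 with median-of-ratios scaling, cluster-mix weighting or 2-fold. In endothelial-like cells it was 1, but 4 with thinned cells, per-cell means or the single-cell gate and 0 at 2-fold. In T-like cells it was 0, but 1 (Atf3) with thinned cells, per-cell means, no doublet removal, separate clustering, the single-cell gate or without the 5 richest cells. The number at least 1.5-fold lower was 1 in T-like cells (Ier2, at -0.59, next to the limit). It was 2 with median-of-ratios scaling, and 0 with thinned cells, cluster-mix weighting, separate clustering, no doublet removal, the single-cell gate, a stricter filter, Leiden resolution 2, the 5 richest cells left out or 2-fold. In neutrophil-like cells it was 1, but 0 with Leiden resolution 2, list genes kept, no doublet removal, the single-cell gate, a stricter filter or 2-fold. It was 0 in mesenchymal-like cells, but 1 with per-cell means or median-of-ratios scaling and 3 with the single-cell gate (30 and 27 cells), and 0 in B-like cells, but 1 with thinned cells or median-of-ratios scaling.

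Of 6 classes, Fosb was higher in 5, but in 3 with the single-cell gate and 2 with median-of-ratios scaling. Junb was higher in 1, but in 2 with thinned cells or list genes kept and 0 without doublet removal. Jund was higher in 2 and Nr4a1 in 2, but each in 1 with median-of-ratios scaling or cluster-mix weighting. Egr1 was higher in 5, but in 3 with thinned cells or median-of-ratios scaling. Zfp36 was higher in 3, but in 5 at Leiden resolution 2 and 1 with median-of-ratios scaling. The cause of these changes was not tested. With no minimum of UMIs the counts did not change, since every member had at least 20. No paired analysis was possible because each genotype has 1 library. No result can be checked by leaving a library out, and plasma-like and hepatocyte-like cells (52 to 79 cells per library) limit what can be read of them.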
